A study of Solanum lycopersicum with 6 samples.

Results

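The 3665 narrowest accessible regions called in a tomato inflorescence were examined, those of 250 bp or less. They were chosen by width, as the end minus the start of each peak on the 12 chromosomes, and made up 4.57% of the 80175 peaks there and 0.960% of the sequence that peaks covered. The tissue came from Solanum lycopersicum of the M82 background with the anantha-e1546 mutation, whose plants grew under 16 h of light and 8 h of dark. All 6 samples were biological replicates of this 1 group, each from 1 g of inflorescences, and all carried the mutation, so no wild type or treatment stood beside them. Chromatin was read by ATAC-seq, and the authors deposited 1 list of peaks for the replicates together on build SL4.0. No value per replicate, no replicate error and no sequencing depth could therefore be given, and the spread below is that among chromosomes (n = 12), which share 1 list.

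In ATAC-seq a transposase cuts into DNA that nucleosomes leave free, and stretches rich in cuts are called as peaks. Open chromatin in plants lies mostly at promoters, at gene ends and at distal regulatory elements, where transcription factors bind in the space between nucleosomes. The F-box protein ANANTHA drives meristems toward floral fate, and its mutants pile up meristems where flowers would form, which makes the inflorescence a source of meristem tissue. The series title places the data in a study of cis-regulatory sequence around a plant homeobox gene. Cell type could not be checked against markers, since peaks were not assigned to genes, and no sequence of build SL4.0 was used here, so positions stand without letters.

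Narrow peaks formed the lower tail of the distribution of peak widths. The narrowest spanned 105 bp, the median was 214 bp and the quartiles were 189 and 234 bp. Their number rose steadily toward the limit, with 180 peaks of 150 bp or less, 1098 of 151 to 200 bp and 2387 of 201 to 250 bp, and it went on rising beyond it, with 3502 peaks of 251 to 300 bp. The 570 peaks of 241 to 250 bp, just inside the limit, had a median −log10 q of 2.66, and 66.8% of them carried the highest score. The 650 peaks of 251 to 260 bp, just outside it, had 2.58 and 61.2%. Peaks on either side of the limit were thus much alike in these values.

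**Figure D1:**
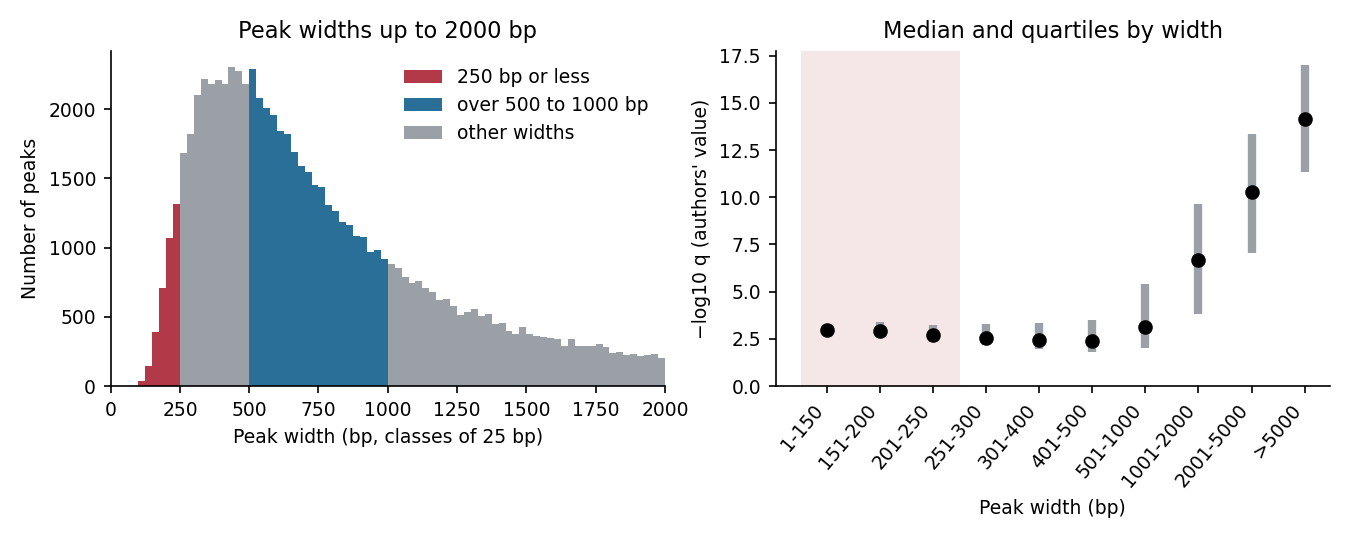
Left, number of peaks on the 12 chromosomes by width in classes of 25 bp, with peaks of 250 bp or less in red and those over 500 and up to 1000 bp in blue. Right, median (points) and quartiles (bars) of the authors' −log10 q in 10 width classes, with the narrow classes shaded. The median was lowest at 401 to 500 bp (2.37) and highest above 5000 bp (14.1).

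Width, score and q come from the same peak calls, so the next values describe the list and were not tested. The deposited score is a whole number that stops at 1000, and 3132 narrow peaks (85.5%) carried that cap, against 61.6% of all peaks and 51.8% of the 29737 peaks of 500 to 1000 bp. Much of this was fixed by the list itself. For peaks under the cap, score times width divided by 1000 never fell below 199.9 in the list. At a width of 250 bp that product requires a score of at least 799.5, and none of the 1250 peaks narrower than 200 bp was under the cap. The 533 narrow peaks under the cap had scores from 804 to 999, with a median of 931, and widths from 202 bp upward.

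**Figure D2:**
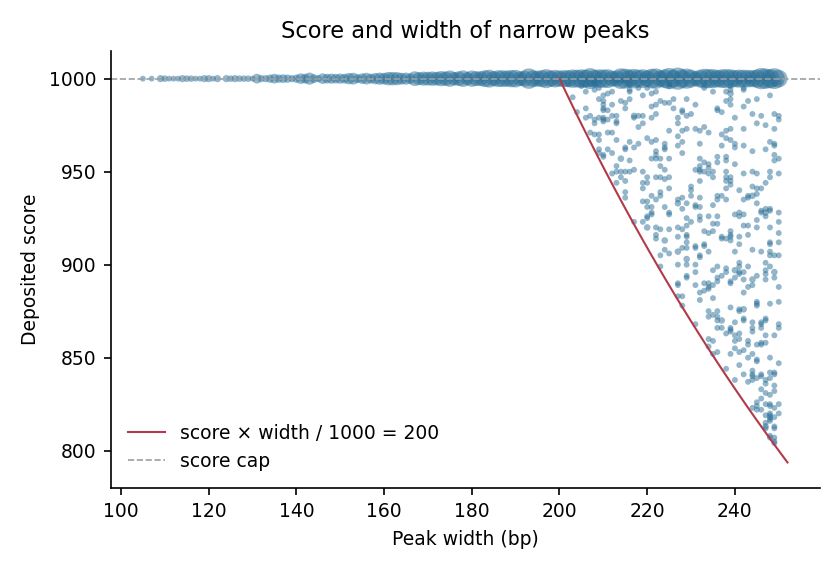
Deposited score against width for the 3665 narrow peaks, with larger points where several share both values. The red line marks a score times width over 1000 of 200, and the 533 peaks under the cap all lie on or to the right of it.

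The −log10 q values of narrow peaks kept within a small range. The median was 2.79, with quartiles of 2.44 and 3.29, whereas peaks of 500 to 1000 bp had a median of 3.14 and quartiles of 2.01 and 5.38. Narrow peaks thus lacked both the weakest and the strongest values. The lower limit of score times width described above comes from the same calls as q, and its part in the lack of weak values was not tested. A q at or below 0.01 was carried by 3504 of them (95.6%), against 82.4% of all peaks. No narrow peak had a q above 0.05, against 0.796% of all peaks, and the largest q among them was 0.0220. At the other end, 113 narrow peaks (3.08%) had a −log10 q above 5, against 28.5% of peaks of 500 to 1000 bp. Over all peaks the upper quartile was 6.75, so values above 5 were far more frequent there than among narrow peaks. Among the narrow peaks the median fell with width, from 2.98 at 150 bp or less to 2.91 at 151 to 200 bp and 2.68 at 201 to 250 bp.

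The strongest narrow peak lay on chromosome 4 at 51407201 to 51407417 (217 bp), with a −log10 q of 10.05. It stood 17 kb from its nearest neighbour, a weak peak with a −log10 q of 1.46. The other 4 of the 5 strongest had close company. On chromosome 3 at 15277779 to 15277983, with 8.79, a narrow peak lay 89 bp from a peak of 780 bp on one side and 53 bp from one of 605 bp on the other, and both neighbours were weaker (4.30 and 7.27). On chromosome 12 at 62873197 to 62873437, with 8.28, the gaps were 41 and 31 bp, and both neighbours were again weaker (7.54 and 5.12). The fourth lay on chromosome 7 at 64713135 to 64713342 (7.92), 45 bp from another narrow peak of 246 bp and 74 bp from a stronger peak of 531 bp (8.16). The fifth lay on chromosome 1 at 85422792 to 85423037 (7.40), 181 bp from a peak of 889 bp. Which genes lie at these positions was not analysed here.

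The narrowest peaks had ordinary q values. The 105 bp peak on chromosome 6, at 38383518 to 38383622, had a −log10 q of 2.70 and stood 34 bp from a peak of 490 bp and 40 bp from one of 1903 bp. The next was 107 bp wide, on chromosome 11 at 46694056 to 46694162 (2.91), 125 bp from a peak of 573 bp. Of the 3 peaks of 109 bp, those on chromosome 3 at 60000117 to 60000225 and on chromosome 11 at 3985482 to 3985590 stood 84 and 69 bp from another peak. The third, on chromosome 11 at 47809411 to 47809519 (3.03), stood 61.5 kb from any other.

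Along the chromosomes, narrow peaks followed the distribution of peaks in general. Their density was 4.74 per Mb of span (95% exact Poisson interval 4.59 to 4.90), and by chromosome it ran from 3.48 per Mb on chromosome 12 (3.05 to 3.96, 232 peaks) to 6.94 on chromosome 6 (6.21 to 7.74, 328 peaks). Chromosome 2 followed with 6.38 per Mb (5.72 to 7.10, 341 peaks). These intervals cover counting error only. As a share of each chromosome's peaks, narrow peaks varied little, at 4.56% ± 0.34 (SD, n = 12), with the lowest value of 4.15% on chromosome 10 and the highest of 5.17% on chromosome 8. Their median width of 214.5 ± 1.9 bp and median −log10 q of 2.78 ± 0.04 per chromosome (SD, n = 12) varied little as well.

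Each span, from the first base to the end of the last peak, was divided into 3 equal parts, and the first and last were taken as outer parts. The outer parts held 3382 narrow peaks (92.3%), against 90.5% of all peaks, and the middle parts held 283. Per chromosome the outer share was 92.5% ± 5.91 for narrow peaks and 90.4% ± 5.08 for peaks of 500 to 1000 bp (SD, n = 12). The difference of 2.05 ± 1.89 percentage points was higher on 9 of 12 chromosomes (p = 0.0039 in an exact two-sided test that flips the signs of chromosome differences, and 0.0078 after Benjamini-Hochberg adjustment over 6 tests). It was 1.86 with a limit of 200 bp (exact test, adjusted p = 0.091) and 1.06 between peaks of both widths at the score cap (exact test, adjusted p = 0.15), and neither value passed. Narrow peaks were 4.66% of the peaks in outer parts and 3.72% of those in middle parts. The lowest shares of the middle parts were on chromosome 4 (2.02%) and chromosome 8 (2.04%). On chromosomes 2, 5 and 7 the middle share was the higher one, for example 5.10% against 4.98% on chromosome 5.

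At finer scale, narrow peaks occurred in 528 of 778 bins of 1 Mb. The highest count was 26, reached on chromosome 9 from 63000001 to 64000000 (of 375 peaks) and on chromosome 10 from 2000001 to 3000000 (of 337 peaks). On chromosome 6 the bin from 35000001 to 36000000 had 23 narrow peaks among 248, or 9.27%. In bins of 50 peaks or fewer narrow peaks were 3.89% of all, and in bins of more than 250 peaks 4.81%. Toward the ends the share varied. Counted from the last peak, narrow peaks were 3.08% of the peaks in the last Mb (113 of 3674) and 4.42% in the next, and counted from the first base they were 3.96% in the first Mb (130 of 3281) and 5.68% in the second, chromosome 2 left out at that end. From the first base, the share was also low in the eighth Mb, at 3.62% (34 of 939). These shares by distance were not tested.

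**Figure D3:**
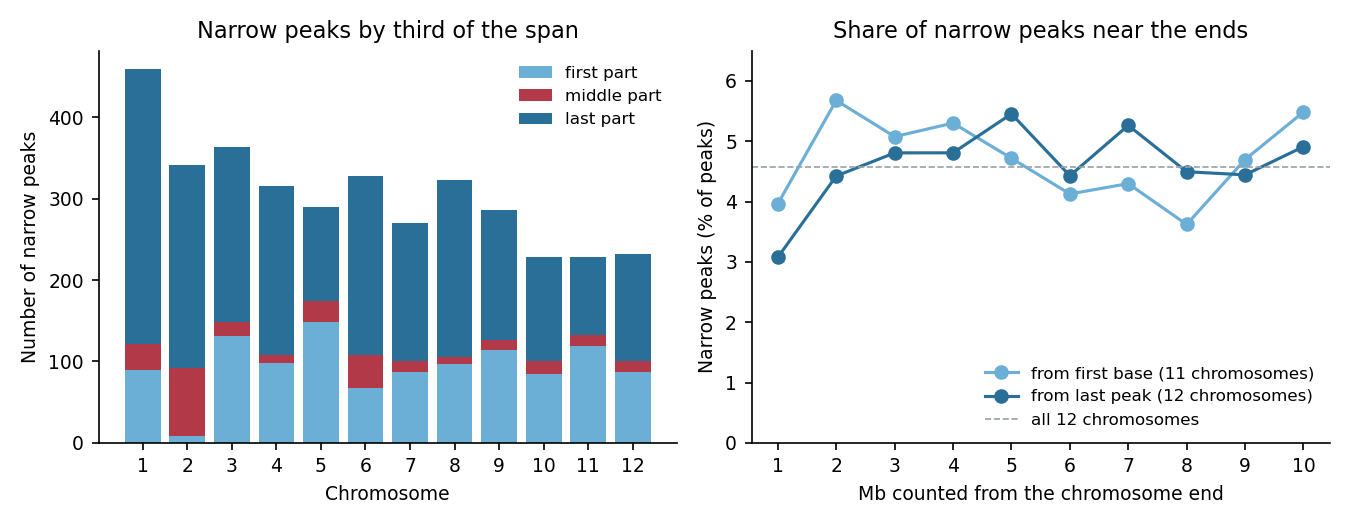
Left, number of narrow peaks on each chromosome by the first, middle and last part of its span. Right, narrow peaks as a percentage of all peaks in each of the 10 outermost Mb, counted from either end, with the value of all 12 chromosomes as a dashed line. Chromosome 1 had the most (459), chromosome 2 had 9 in its first part, and the outermost Mb lies below the dashed line at both ends.

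Narrow peaks more often had another peak right beside them than peaks of medium width did. A peak within 100 bp, edge to edge, was found for 1596 narrow peaks (43.5%, exact binomial 95% interval 41.9 to 45.2), against 39.8% of all peaks. The interval covers counting error only and treats peaks as independent, though adjacent peaks share a gap. The share fell with width, from 61.1% at 150 bp or less to 45.3% at 151 to 200 bp and 41.4% at 201 to 250 bp. Just inside the limit, at 241 to 250 bp, it was 39.3%, against 40.6% at 251 to 260 bp. Among wide peaks it was high again, at 48.3% for 2001 to 5000 bp and 56.2% above that. These shares by width were not tested. Regional density differs along chromosomes, so peaks of 500 to 1000 bp were taken from the same 1 Mb bins and weighted by the number of narrow peaks there, in 523 bins with 3660 narrow and 27959 comparison peaks. In these bins the share was 43.6% ± 2.79 for narrow and 37.3% ± 1.77 for comparison peaks (SD, n = 12). The difference of 6.23 ± 3.12 percentage points was positive on 12 of 12 chromosomes (p = 0.00049 by the exact sign-flip test, the lowest value possible with 12 chromosomes, adjusted p = 0.0015). It ran from 0.21 on chromosome 4 to 11.3 on chromosome 8. With a limit of 50 bp it was 2.39 (exact test, adjusted p = 0.073), and with peaks of both widths restricted to the narrow peaks' quartiles of −log10 q it was 2.72 (exact test, adjusted p = 0.11), so both ended the call. With narrow taken as 200 bp or less it was 10.3, and against all peaks wider than 250 bp it was 3.66. Gaps and widths are set by the same peak calls, so this test does not stand wholly apart from the rule.

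Of the distance classes given here, which are unequal in span, that of 51 to 100 bp held the largest excess. The first class holds only gaps of 31 to 50 bp, so these classes do not show where the excess per bp was largest. Narrow peaks had their nearest neighbour at 50 bp or less in 21.5% and peaks of 500 to 1000 bp in 19.2%, at 51 to 100 bp in 22.1% and 17.9%, and at 101 to 200 bp in 12.1% and 10.5%. At 201 to 500 bp the order turned, with 12.96% of narrow and 17.5% of comparison peaks. The median gap was 135 bp for narrow peaks (quartiles 56 and 712 bp) and 234 bp for comparison peaks (61 and 825 bp). Gaps shorter than 31 bp did not occur in the list, whose name records a gap setting of 30 bp, and the shortest gaps were the most frequent, with 477 narrow peaks at 31 to 40 bp and 310 at 41 to 50 bp. These distance classes were not tested one by one.

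**Figure D4:**
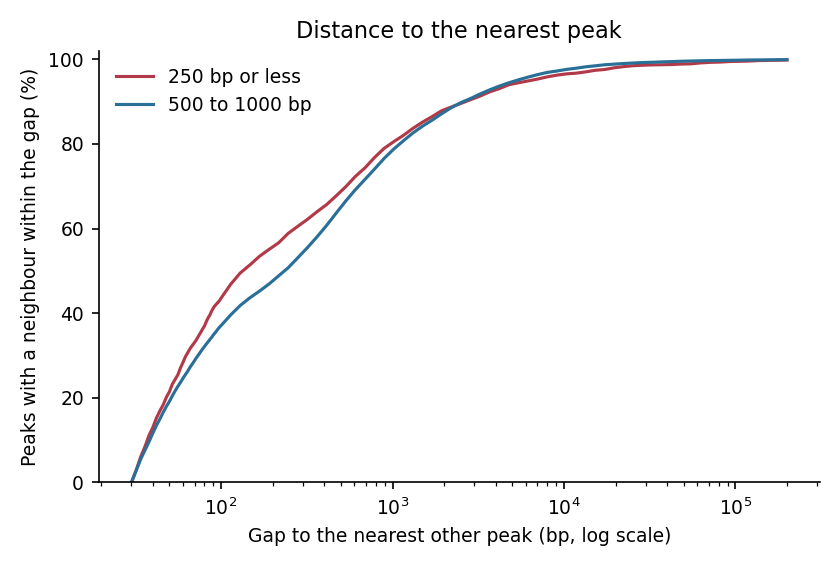
Cumulative percentage of peaks whose nearest other peak lies within a given edge-to-edge gap (log scale), for narrow peaks (red) and peaks of 500 to 1000 bp (blue). The red curve lies higher at short gaps, with 43.5% against 37.1% at 100 bp, and the curves cross between 2 and 5 kb.

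The neighbours of narrow peaks were narrower than those of peaks of 500 to 1000 bp, though most were wider than 250 bp. In the same bins, the nearest other peak had a median width of 584 ± 33.6 bp beside narrow peaks and 691 ± 19.4 bp beside peaks of 500 to 1000 bp (SD, n = 12). The difference of -107.2 ± 39.6 bp was negative on 12 of 12 chromosomes (p = 0.00049 by the exact sign-flip test, adjusted p = 0.0015). It was -55.3 bp between peaks of both widths at the score cap (exact test, adjusted p = 0.0044), and the neighbours' widths come from the same peak calls as the rule. Of the 1596 narrow peaks with company within 100 bp, the nearest peak was 250 bp wide or less for 7.14% and 251 to 500 bp for 30.8%. It was 501 to 1000 bp wide for 34.5%, 1001 to 2000 bp for 18.1% and wider for 9.46%. For the 11020 flanked peaks of 500 to 1000 bp these shares were, in the same order, 5.30%, 25.7%, 34.8%, 22.8% and 11.4%.

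Flanking a peak wider than 250 bp was only a little more common than among all peaks, and nearly all peaks in the list are that wide. Some peak wider than 250 bp lay within 100 bp of 1498 narrow peaks (40.9%), against 37.9% of all peaks. A peak wider than 1000 bp lay there for 493 (13.5%), against 15.4% of all peaks. For this wide neighbour, shares in the same bins were 13.5% ± 2.45 for narrow and 13.9% ± 1.33 for comparison peaks (SD, n = 12). The difference of -0.41 ± 2.73 percentage points, positive on 6 and negative on 6 chromosomes, did not pass (exact sign-flip test, p = 0.60, adjusted p = 0.73). Within the narrow peaks' quartiles of −log10 q it was -4.40 and passed (exact test, adjusted p = 0.0059), and against all peaks wider than 250 bp it was -1.93 (exact test, adjusted p = 0.029).

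Within 100 bp of a peak wider than 1000 bp, both narrow peaks and peaks of 500 to 1000 bp were mostly the weaker of the pair. Where the nearest peak was 1001 to 2000 bp wide, the narrow peak had the lower −log10 q in 95.2% of 289 cases, with medians of 2.81 and 8.64. Peaks of 500 to 1000 bp beside such neighbours were lower in 80.1% of 2512 cases. Where it was wider than 2000 bp, the narrow peak was lower in 99.3% of 151 cases, with medians of 2.79 and 11.02, and peaks of 500 to 1000 bp were lower in 94.9% of 1260 cases. Beside peaks of 501 to 1000 bp the narrow peak was lower in 76.8% of 551 cases, with 2.87 and 4.85. Peaks of 500 to 1000 bp were lower there in 50.8% of 3831 cases. Beside peaks of 251 to 500 bp the narrow peak was lower in 50.5% of 491 cases, with 2.93 and 2.96. There the peaks of 500 to 1000 bp were lower in 29.5% of 2833 cases, so the 2 widths differed more beside these smaller neighbours. Shares over all flanked peaks are not given here, and these shares were not tested. The narrow peak's own median thus moved little, within the small range of −log10 q that narrow peaks had in the list. That of its neighbour rose with width, as the medians of the width classes above 500 bp did in the list as a whole. The own median of peaks of 500 to 1000 bp fell, from 3.84 beside peaks of 251 to 500 bp to 2.66 beside those wider than 2000 bp.

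Joining peaks over gaps of 100 bp placed the 1596 flanked narrow peaks in 1517 regions with a median length of 1189 bp (quartiles 749 and 2143 bp), of which 1026 (67.6%) held 2 peaks. In 344 cases (21.6%) the narrow peak was the strongest of its region, as were 42.7% of all joined peaks and 37.4% of joined peaks of 500 to 1000 bp. These shares were not tested. The other 2069 narrow peaks joined nothing and remained the regions of 250 bp or less. A peak within 100 bp on both sides was found for 279 narrow peaks (7.61%), against 5.83% of all peaks. With a neighbour on one side, 656 had it toward lower and 661 toward higher coordinates. In regions of 3 joined peaks, 188 of 346 narrow peaks (54.3%) stood at an end, against 66.7% for all peaks of such regions and 69.0% for peaks of 500 to 1000 bp. In regions of 4 it was 40.5% of 116, against 50% for all peaks. The values for all peaks are fixed by the number of peaks in a region. These end shares were not tested.

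Narrow peaks beside each other formed pairs. Another narrow peak within 100 bp was found for 130 of them (3.55%), against 2.32% of all peaks and 2.18% of peaks of 500 to 1000 bp, and these formed 65 pairs and no longer run. The longest pair spanned 580 bp on chromosome 8 from 6904409 to 6904988, inside a joined region of 2805 bp with 3 peaks. The next were on chromosome 7 from 59048148 to 59048704 and on chromosome 6 from 38468467 to 38469021, and each of these stood as a region of its own, of 557 and 555 bp. The median distance from a narrow peak to the nearest other narrow peak was 25178 bp.

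No other peak within 2 kb was found for 437 narrow peaks (11.9%, exact binomial 95% interval 10.9 to 13.02), a share near the 11.6% of all peaks. This interval, too, treats peaks as independent. In the same bins the share was 12.01% ± 2.18 for narrow and 12.06% ± 1.45 for comparison peaks (SD, n = 12), and the difference of -0.05 ± 2.15 percentage points did not pass (exact sign-flip test, p = 0.93, adjusted p = 0.93). The result depended on the distance. With a limit of 5 kb narrow peaks stood alone more often, by 0.97 percentage points and on 10 of 12 chromosomes (exact test, adjusted p = 0.0088). When peaks of a q above 0.01 were dropped from the list, they stood alone within 2 kb less often, by -2.92 percentage points (exact test, adjusted p = 0.011).

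Some narrow peaks were remote from any other. More than 50 kb from any other peak stood 42 narrow peaks (1.15%), against 137 peaks of 500 to 1000 bp (0.461%), a difference that was not tested and not matched by bin. The share of all peaks at this distance is not given here, so neither value can be set against the list as a whole. The most remote was on chromosome 9 at 37419528 to 37419689 (162 bp, −log10 q of 4.40), 738.3 kb from its nearest neighbour. Those next in distance were on chromosome 7 at 15456004 to 15456192 (336.5 kb) and at 31130294 to 31130507 (248.5 kb), on chromosome 11 at 22866811 to 22867050 (221.7 kb) and on chromosome 8 at 45130815 to 45131050 (221.1 kb). The last 4 of these 5 had −log10 q values from 2.12 to 2.86.

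Narrow peaks that stood alone and those that were flanked had similar widths, with medians of 216 and 211 bp. Their median −log10 q per chromosome was 2.78 ± 0.13 for those alone and 2.89 ± 0.08 for those with a peak within 100 bp (SD, n = 12). The difference of -0.11 ± 0.18, negative on 9 of 12 chromosomes, did not pass (exact sign-flip test, p = 0.068, adjusted p = 0.10). Peaks standing alone had the higher median on chromosomes 2 (by 0.29), 3 (0.079) and 9 (0.033). Without chromosome 2, the most contrary, the difference was -0.14 and passed (exact test, adjusted p = 0.015). With any other chromosome left out instead, it did not pass (exact test, adjusted p from 0.075 to 0.20). Flanked on both sides, narrow peaks had a median of 3.06, and the 98 flanked by narrow peaks alone had 3.17. Peaks of 500 to 1000 bp also had higher medians there, with 3.53 on both sides and 4.78 beside narrow peaks alone. All flanked peaks of that width had 3.24. These medians were not tested.

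**Figure D5:**
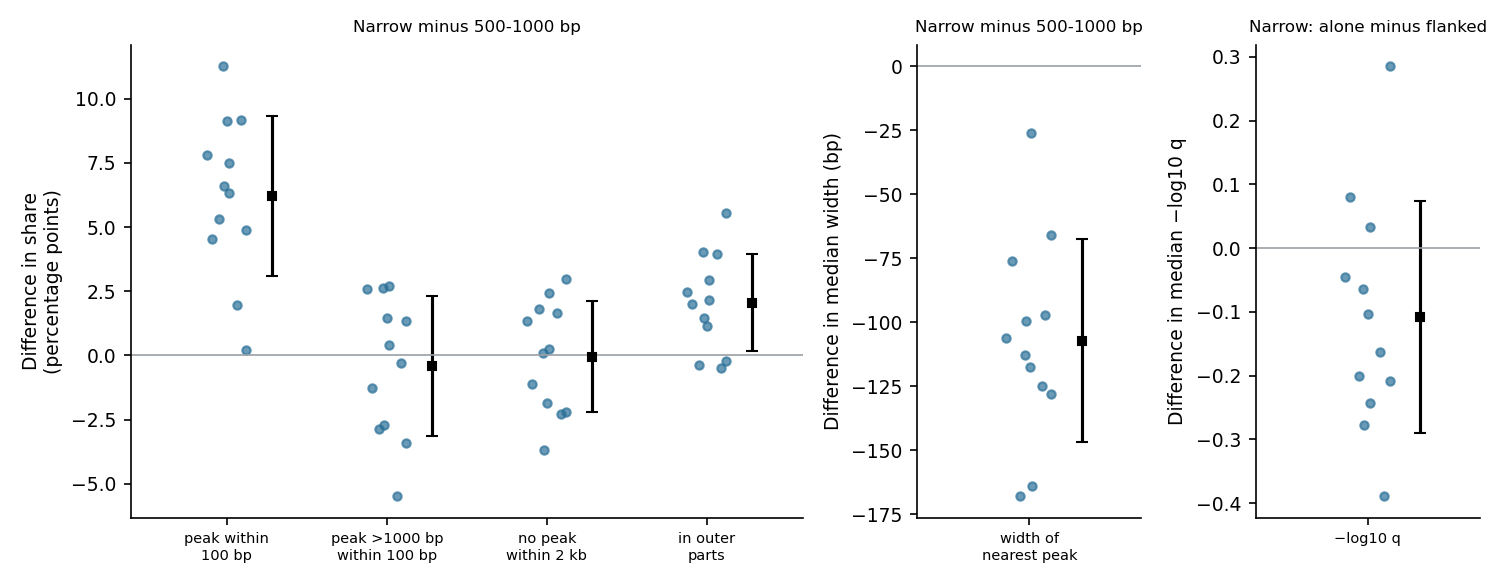
Differences per chromosome (points) with mean and SD (squares and bars, n = 12). Left and centre, narrow peaks minus peaks of 500 to 1000 bp, as shares in percentage points and as median width of the nearest peak in bp; right, median −log10 q of narrow peaks alone within 2 kb minus that of narrow peaks with a peak within 100 bp. All 12 points lie above 0 for a peak within 100 bp and below 0 for the width of the nearest peak.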

How the data were processed

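ATAC-seq libraries from 6 replicates were made, per the labels' protocols, with a Nextera transposase on 100000 nuclei (30 min, 37 °C) and sequenced on a MiSeq in pairs of 50 bases. Per the submitters' processing notes, Trimmomatic, BWA, Picard, SAMtools, bedtools and Genrich 0.6 were used, with no role given. The handling of duplicates and of multiply mapped reads is not given in the sources used here. The authors deposited 1 peak list with a score per peak, a whole number up to 1000, and inside each peak's name the −log10 of a q value. Its name records Genrich with q 0.5 and gap 30. Depth is unknown from this list.

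Distances are edge to edge and positions 1-based, and unplaced sequence was left out. The 6 tests flip the sign of chromosome differences in all 4096 ways, with Benjamini-Hochberg adjustment over 6 and a threshold of 0.05. They measure spread among chromosomes of 1 list, not among plants. All were also run on labels drawn at random. Shifts were planted only in having a peak within 100 bp, in lying in outer parts and in the −log10 q of peaks standing alone. The outcome of these draws is not given here. Such draws do not reproduce peak calls that set width and gap together, so they do not cover that dependence. The peaks, tests and limits were chosen with earlier results of these data known. Peaks were named by position: the 5 strongest, narrowest and most remote, the 3 longest runs and the bins with the most narrow peaks. No genes or sequences are given, since no sequence or gene table of build SL4.0 was used here. Tables were handled with pandas 2.3.3 and numpy 2.4.6 in Python 3.11.15, intervals came from scipy 1.17.1 and plots from matplotlib 3.10.9.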

Additional observations from a re-analysis of the deposited data

Results flagged for a closer look

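Peaks of 250 bp or less also occurred on sequence not placed on a chromosome, which no comparison used. There were 56 of them among 521 peaks (10.7%), against 4.57% on the 12 chromosomes. Their median −log10 q was 2.98, with a highest value of 21.9, and 7 of them (12.5%) had another peak within 100 bp, against 30.7% of all 521 peaks there and 43.5% of narrow peaks on the chromosomes.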

How the results depend on the processing

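The number of narrow peaks was 1278 with a limit of 200 bp, 7167 with 300 bp and 2069 once peaks within 100 bp were merged. The nearest peak was narrower beside narrow peaks under all 21 alternatives run, from -130.6 to -55.3 bp, and each passed. The share with a peak within 100 bp kept its sign under 23 alternatives and its call under 21. It was 2.39 percentage points with 50 bp and 2.72 within the narrow peaks' quartiles of −log10 q, and stayed past the threshold at 10.3 with a limit of 200 bp and 3.66 against all peaks wider than 250 bp. The higher outer share lost its call with a limit of 200 bp (1.86) and at the score cap (1.06). The share beside a peak wider than 1000 bp passed within the quartiles (-4.40) and against all peaks wider than 250 bp (-1.93). It turned sign, without passing, with a q at or below 0.01 (0.030), at the score cap (0.98), against peaks of 251 to 500 bp (0.16) and for neighbours wider than 500 bp (2.37). The share alone within 2 kb passed with a q at or below 0.01 (-2.92). It turned sign with narrow as 300 bp or less (0.22), against all wider peaks (0.80), against peaks of 251 to 500 bp (0.081), within the quartiles (1.10) and, there passing, with 5 kb (0.97). The lower −log10 q of narrow peaks standing alone passed with a q at or below 0.01 (-0.16), with limits of 200 bp (-0.16) and 300 bp (-0.093) and at the score cap (-0.12). Leaving out each chromosome in turn moved this difference between -0.14 and -0.082, the share beside a wide peak between -0.70 and 0.048, and the share alone between -0.32 and 0.28. The cause of these changes was not tested. Alternatives at the score cap, within the quartiles and against 251 to 500 bp were added after the data were examined. Replicates could not be left out, since the list does not separate them, and with depth unknown a gap means no call.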
